A study of Rattus norvegicus with 6 samples.

Results

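The genes of neuregulin and epidermal growth factor (EGF) signalling were compared between Schwann cell precursors (SCPs) and repair Schwann cells (RSCs) of the rat. The 10 genes were chosen by symbol and comprised 4 receptors (Erbb2, Erbb3, Erbb4 and Egfr) and 6 ligands (Nrg1, Nrg2, Btc, Areg, Hbegf and Tgfa), out of 29468 gene symbols in the tables. SCPs were obtained from the sciatic nerves and brachial plexus of LEWIS embryos at embryonic day 14, with no treatment. RSCs were obtained from the distal part of cut sciatic nerves of LEWIS rats aged 10 weeks, 1 week after the cut. Both groups were labelled wild type, and each comprised 3 samples from separate sets of experiments. The paper prepared its grafted cells from LEWIS rats with a red fluorescent transgene, and does not say separately which rats gave the sequenced cells. The cells were dissociated nerve cells, from which adherent cells such as fibroblasts and macrophages were depleted by a short seeding on uncoated plastic, so each sample was a mixture rather than a sorted cell type.

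ErbB receptors are receptor tyrosine kinases that act in pairs. ErbB3 binds neuregulins but has little kinase activity of its own, and ErbB2 has a kinase but no known ligand, so the pair forms the working neuregulin receptor of Schwann cells. Neuregulin 1 on and from axons drives the survival of SCPs and later sets myelin thickness. EGFR and ErbB4 bind the EGF-type ligands, which are made as membrane proteins and are released by shedding proteases.

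Expression was given in FPKM, a count of fragments divided by transcript length and by the total of mapped fragments, and genes can be compared with one another on this scale because it is per length. Each table listed reference transcripts with a gene name and, in addition, transcripts without a name that had been assembled from that sample alone. In single samples a named transcript was listed at 0 while an unnamed transcript lay at the same place, so 2 estimates were made for every gene. The first was the sum over named transcripts. The second added the unnamed transcripts that overlapped the gene under the same gene identifier. Transcripts without a name took 26.1% to 31.9% of all FPKM in SCPs and 18.6% to 23.4% in RSCs. Genes whose 6-sample mean reached 1 FPKM were compared with limma on log2(FPKM + 1), and a difference was called at an unadjusted p under 0.01. The study used this p together with a log2 fold change over 2, and members past both are counted apart. Fold changes are RSC minus SCP, and adding 1 FPKM understates the change of low genes. The p-values printed for single genes are limma values adjusted by Benjamini-Hochberg across the whole table, and intervals of fold changes are limma's at 95% confidence.

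Erbb3, Btc, Areg and Hbegf were higher in RSCs once the unnamed transcripts were added. Nrg1, whose low mean kept it out of the filtered test, lay the other way, above 1 FPKM in every SCP sample and under 0.1 FPKM in every RSC sample. Erbb2, Egfr and Tgfa did not pass the test in either estimate. From the named transcripts, 6 of the 10 genes could be tested and 0 passed, where 40.5% of all 13003 tested genes passed, 18.1% towards RSCs and 22.4% towards SCPs. At an unadjusted p under 0.05, 2 of the 6 passed (Erbb2 and Hbegf), and the share of all genes at that p was not computed. The same 2 had groups that did not overlap, against 58.6% of all tested genes. With the unnamed transcripts added, 7 of the 10 genes could be tested and 4 passed, all higher in RSCs. Past a log2 fold change of 2 as well were 0 of the 6 and 2 of the 7 (Areg and Btc). The share of all genes past both was not computed, so these counts say nothing about the members as a set. Over all 14019 genes tested there, 57.4% passed, 23.2% towards RSCs and 34.2% towards SCPs, and the groups did not overlap in 72.4% against 4 of the 7. Taken in either direction the share of passing members was close to the background, and Btc and Areg were over the filter only through their RSC values. In the same samples the leukocyte marker Ptprc stood at 0.193, 0.758 and 0.609 FPKM in SCPs and at 10.8, 11.9 and 7.33 FPKM in RSCs, fibroblast markers were higher in RSCs, and erythroid and muscle markers were higher in SCPs. Of 6 tested neuronal markers, 2 were higher in SCPs and 0 in RSCs from named transcripts, and 4 and 0 with unnamed ones added. The part of these other cells in the differences described here was not tested. Over all genes the median log2 fold change was -0.17 for named transcripts and -0.24 with the unnamed ones added, and median-of-ratios scaling moved it to 0.02 and 0.0055. In bulk samples of this kind, fewer cells of a type and less RNA per cell cannot be told apart.

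The promoters of the 3 ligand genes that passed the test are shown because these genes stood higher in the same samples. They are RefSeq sequences of the GRCr8 build, from 250 bases before to 50 bases after the start of the gene. Of the 10 genes, 8 had an entry. Capitals mark matches, on either strand, to the CRE (TGACGTCA), the TATA box (TATAAA) and the GC box (GGGCGG), and the AP-1 site (TGANTCA) was searched as well.
Btc (chr14:16992418-16992717, plus strand): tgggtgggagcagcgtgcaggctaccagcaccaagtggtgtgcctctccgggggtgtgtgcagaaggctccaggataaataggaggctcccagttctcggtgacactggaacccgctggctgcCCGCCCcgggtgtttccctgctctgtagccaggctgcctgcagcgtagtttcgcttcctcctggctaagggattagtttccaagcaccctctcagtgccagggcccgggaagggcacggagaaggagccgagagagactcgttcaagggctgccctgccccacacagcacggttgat
Areg (chr14:17265592-17265891, minus strand): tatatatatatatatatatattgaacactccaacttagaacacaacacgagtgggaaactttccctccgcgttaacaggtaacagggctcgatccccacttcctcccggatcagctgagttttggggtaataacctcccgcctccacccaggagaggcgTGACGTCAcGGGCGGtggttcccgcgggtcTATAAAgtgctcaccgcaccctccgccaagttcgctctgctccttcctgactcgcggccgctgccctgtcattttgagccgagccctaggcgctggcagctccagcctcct
Hbegf (chr18:28390171-28390470, minus strand): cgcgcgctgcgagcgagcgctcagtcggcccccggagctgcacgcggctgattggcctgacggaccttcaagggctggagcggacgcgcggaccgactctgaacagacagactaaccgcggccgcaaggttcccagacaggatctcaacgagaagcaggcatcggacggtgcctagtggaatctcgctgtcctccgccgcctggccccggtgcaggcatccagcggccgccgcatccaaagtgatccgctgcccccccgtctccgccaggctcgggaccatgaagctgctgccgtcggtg
The Areg promoter held a CRE 91 bases, a GC box 82 bases and a TATA box 61 bases before the start. The CRE, the binding site of the CREB family, was present in 1.83% of 33469 rat promoters of this length, the TATA box in 14.2% and the GC box in 33.1%. The Btc promoter held 1 GC box, 127 bases before the start, and the Hbegf promoter held none of the 4 motifs. The AP-1 site, found in 7.33% of all promoters, was in none of the 8 entries. Egfr, Erbb2, Erbb4 and Nrg2 had 1 GC box each and Tgfa had 2. The Hbegf window was 68.7% G and C with 35 CpG dinucleotides, the Btc window 62.7% with 13, and the Areg window 56.0% with 20, beside medians of 51.7% and 7 over all promoters. A match describes the letters of the window and is not evidence of a bound site.

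Erbb3 encodes the neuregulin-binding member of the Schwann cell receptor and lay on chromosome 7 from 2991016 to 3010312 of rn6. Its 1 named transcript, of 4220 bases, was listed at 0, 31.6 and 32.8 FPKM in SCP replicates 1, 2 and 3 and at 111, 0 and 95.6 FPKM in RSC replicates 1, 2 and 3. Each group had a single 0, and the groups overlapped because of the 0 in RSC replicate 2. Cufflinks had marked the gene as low data in all 6 samples. The fit gave a log2 fold change of 1.10 with a standard error of 2.31 (limma adjusted p = 0.73), an interval from -4.57 to 6.77. At the same place 7 unnamed transcripts of 3864 to 6750 bases had been assembled, with at least 1 in each sample. In RSC replicate 1 there were 2, at 103 and 55.0 FPKM. Both ended before the end of the named transcript, and their FPKM was added in full. The single unnamed transcript held all 79.8 FPKM of SCP replicate 1 and all 208 FPKM of RSC replicate 2, the samples with a 0. With these transcripts added, Erbb3 stood at 79.8, 87.7 and 102 FPKM in SCPs and at 269, 208 and 218 FPKM in RSCs. Every RSC sample lay above every SCP sample. The means were 89.9 ± 11.4 and 232 ± 33.0 FPKM (SD, n = 3 each), a 2.58-fold difference. The log2 fold change was 1.35 with a standard error of 0.13 (limma adjusted p = 0.00019). Leaving out the named transcript's 2 values of 0 gave 1.65, which also passed the threshold.

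Erbb2 encodes the kinase partner of ErbB3 (chromosome 10 from 86367596 to 86391728). Its 1 named transcript stood at 27.0, 27.7 and 33.8 FPKM in SCPs and at 17.1, 17.4 and 23.5 FPKM in RSCs. All SCP samples lay above all RSC samples (log2 fold change -0.59, standard error 0.17, limma adjusted p = 0.029), which did not pass the threshold of the unadjusted p. Unnamed transcripts of 4548 to 4799 bases had been assembled at Erbb2 in the 3 RSC samples alone, with 8.32, 5.0 and 3.83 FPKM. Adding them brought RSCs to 25.4, 22.4 and 27.3 FPKM. The groups then overlapped, and the log2 fold change was -0.23 with an interval from -0.53 to 0.07 (limma adjusted p = 0.15). After median-of-ratios scaling it was -0.39 from named transcripts and 0.03 with unnamed ones added, so the direction of Erbb2 was not stable.

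Egfr encodes the EGF receptor (chromosome 14 from 99919485 to 100104136). Only 1 of its 4 named transcripts was above 0, at 0, 4.88 and 2.49 FPKM in SCPs and at 1.76, 3.57 and 3.23 FPKM in RSCs. Cufflinks had marked this transcript as low data in all 6 samples. The groups overlapped (log2 fold change 0.46, standard error 0.68, limma adjusted p = 0.61). Unnamed transcripts, 8 in all and present in every sample, brought Egfr to 8.30, 14.9 and 10.3 FPKM in SCPs and to 7.75, 9.37 and 8.68 FPKM in RSCs. The sign turned, to -0.31 with an interval from -0.81 to 0.19 (limma adjusted p = 0.23), and the groups still overlapped. Erbb4, the other neuregulin receptor, was near the bottom of the range at 0, 0.167 and 0.187 FPKM in SCPs and at 0.433, 0.246 and 0 FPKM in RSCs. It had no unnamed transcript and was under the filter of the test.

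**Figure D1:**
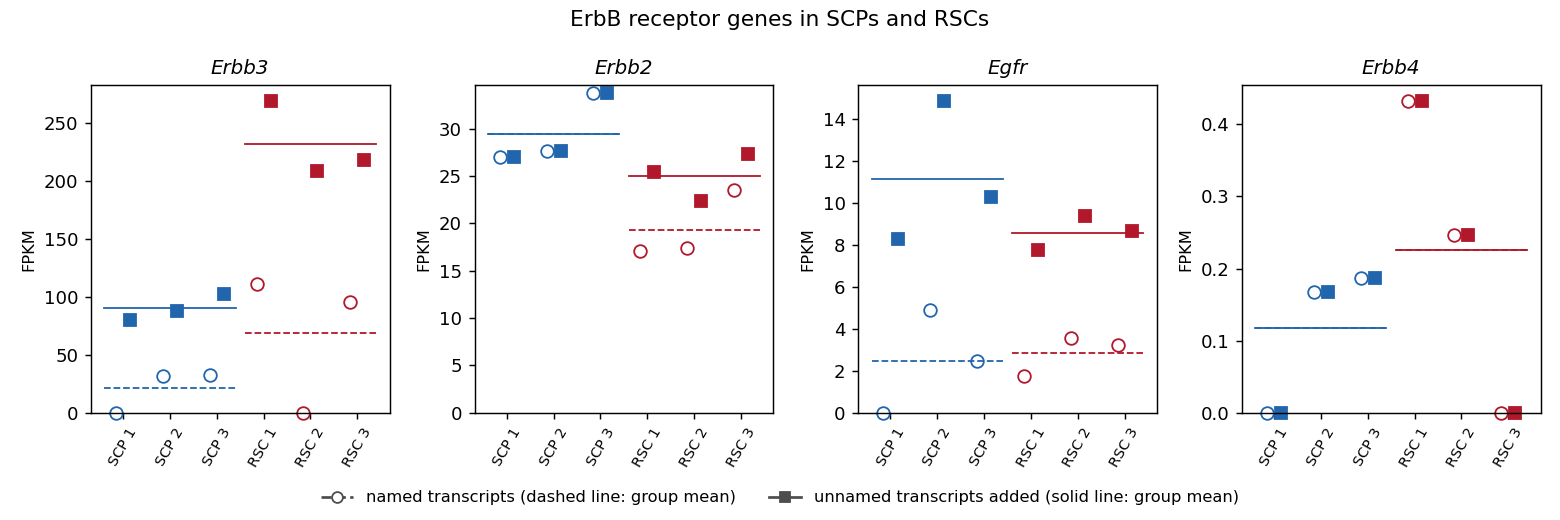
FPKM of the 4 receptor genes in each sample, with open circles for named transcripts, filled squares for the estimate with unnamed transcripts added, and lines at the group means. With the squares, Erbb3 lies between 208 and 269 FPKM in RSCs and between 79.8 and 102 FPKM in SCPs, while Erbb2 and Egfr overlap and Erbb4 stays under 0.5 FPKM.

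The makeup of the receptor pool followed from these levels. With unnamed transcripts added, the 4 receptor genes summed to 131 ± 15.7 FPKM in SCPs and 266 ± 33.2 FPKM in RSCs (SD, n = 3 each). Erbb3 was 69.3%, 67.2% and 69.8% of that sum in SCPs and 88.9%, 86.7% and 85.8% in RSCs. Erbb2 was 22.6% ± 1.2 in SCPs and 9.49% ± 1.2 in RSCs, and Egfr was 8.56% ± 2.48 and 3.30% ± 0.684. For each of these 3 shares the groups did not overlap, and the exact permutation test gave p = 0.1. This is the smallest p that 3 against 3 samples allows, so the threshold of 0.05 was out of reach. The shares are parts of the same sum, so a higher Erbb3 lowers the others. The FPKM of Erbb2 and Egfr overlapped in this estimate. The named transcripts alone gave Erbb3 shares of 0%, 49.1% and 47.3% in SCPs and 85.2%, 0% and 78.2% in RSCs, which overlapped (exact permutation p = 0.6). Erbb3 was also set against Sox10, a transcription factor of the Schwann cell lineage. Sox10 stood at 179, 175 and 181 FPKM in SCPs and at 149, 143 and 143 FPKM in RSCs (log2 fold change -0.30, standard error 0.06, limma adjusted p = 0.0077). The log2 ratio of Erbb3 to Sox10 was -1.16, -0.99 and -0.82 in SCPs and 0.85, 0.53 and 0.60 in RSCs, a difference of 1.65 (exact permutation p = 0.1). From named transcripts the ratio was -7.49, -2.43 and -2.43 in SCPs and -0.42, -7.17 and -0.58 in RSCs, a difference of 1.40 with overlapping groups (exact permutation p = 0.5), and without SCP replicate 1 it was -0.29. The higher ratio in every RSC sample thus holds in the second estimate alone.

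Nrg1 encodes neuregulin 1, the ligand on which SCPs depend (chromosome 16 from 62969988 to 64057434, 14 named transcripts). It stood at 1.01, 1.02 and 1.10 FPKM in SCPs and at 0, 0.0646 and 0.0575 FPKM in RSCs. SCP samples lay above RSC samples without overlap, although all levels were low. Of 6 neuronal markers, 2 were also higher in SCPs from named transcripts and 4 with unnamed ones added, and 0 were higher in RSCs. The part of neuronal RNA in the Nrg1 difference was not tested. A group of 10 transcripts with a shared start site carried 0.804, 1.02 and 1.10 FPKM in SCPs. A second start site, with 3 transcripts, gave 0.21 FPKM in SCP replicate 1 and 0.0575 FPKM in RSC replicate 3, and the remaining transcript was listed at 0 throughout. Unnamed transcripts were assembled at Nrg1 in the 3 SCP samples and not in RSCs, and they raised SCPs to 1.41, 1.91 and 2.17 FPKM. The mean over all 6 samples stayed under 1 FPKM in both estimates, so Nrg1 was not tested with the filter. Without the filter its log2 fold change was -0.97 (standard error 0.10, limma adjusted p = 0.00098) for named transcripts and -1.43 (standard error 0.13, limma adjusted p = 0.00027) with unnamed ones added. Nrg2, a related neuregulin (chromosome 18 from 28835391 to 29015552), had 0.0599, 0.168 and 0.253 FPKM in SCPs and at 0.291, 0.199 and 0.0703 FPKM in RSCs. The groups overlapped, and no group difference in Nrg2 was detectable at these levels.

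Btc encodes betacellulin, a ligand of EGFR and ErbB4 (chromosome 14 from 18231854 to 18270621). Its 1 named transcript, of only 611 bases, was listed at 0 in 5 of the 6 samples and at 2.21 FPKM in SCP replicate 3. In the RSC samples Cufflinks had marked it as low data, and 4 unnamed transcripts of 2431 to 2479 bases had been assembled there, with none in SCPs. Of these, 3 shared the start coordinate of the named transcript and ended 1820 to 1868 bases beyond its end. With them, Btc stood at 0, 0 and 2.21 FPKM in SCPs and at 42.3, 39.6 and 41.9 FPKM in RSCs. The RSC values lay close to each other and lay far above every SCP value. The log2 fold change on the FPKM + 1 scale was 4.84 (standard error 0.45, limma adjusted p = 0.00015), and its size depends on the added 1 since the SCP values included 0. Btc was over the filter only through its RSC values, so this p adds no separate support for the direction. From the named transcript alone Btc stood at the bottom of the RSC order.

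Areg encodes amphiregulin, an EGFR ligand that lies near Btc on chromosome 14 (from 18521921 to 18531179). It was listed at 0 in all 3 SCP samples. In RSCs the named transcript stood at 5.25, 4.0 and 0 FPKM (limma adjusted p = 0.11). Once unnamed transcripts were counted, the RSC values were 5.25, 5.50 and 10.8 FPKM (limma adjusted p = 0.00013), and no fold is given against a group listed at 0. Areg was over the filter only through its RSC values, so its p adds no separate support for the direction. Further unnamed transcripts overlapped Areg in RSCs under another gene identifier, with 3.39, 16.0 and 5.74 FPKM in replicates 1, 2 and 3, and were not counted. No such transcript overlapped Areg in SCPs.

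Hbegf encodes heparin-binding EGF-like growth factor, a ligand of EGFR and ErbB4 (chromosome 18 from 29330302 to 29340185). The named transcript stood at 4.68, 10.3 and 14.0 FPKM in SCPs and at 18.7, 24.4 and 19.2 FPKM in RSCs. RSCs lay above SCPs in every sample, at means of 20.7 ± 3.18 and 9.66 ± 4.68 FPKM (SD, n = 3 each). The log2 fold change of 1.13 (standard error 0.37, limma adjusted p = 0.049) did not pass the threshold of the unadjusted p. Unnamed transcripts of 1371 to 1692 bases lay at one end of the gene in SCP replicate 1 (4.40 FPKM), RSC replicate 1 (17.2 FPKM) and RSC replicate 3 (17.6 FPKM). With them Hbegf stood at 9.09, 10.3 and 14.0 FPKM in SCPs and at 35.8, 24.4 and 36.7 FPKM in RSCs, a 2.90-fold difference of the means. The log2 fold change was then 1.45 (standard error 0.21, limma adjusted p = 0.0011). These unnamed transcripts covered only part of the gene, and their FPKM was added in full. RSC replicate 2 had none and stayed at 24.4 FPKM. The larger fold and the call thus rest on these partial transcripts. The direction was the same in both estimates.

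Tgfa encodes transforming growth factor alpha, the classical EGFR ligand besides EGF (chromosome 4 from 117961284 to 118045923). Only 1 of its 4 named transcripts was above 0, and it had no unnamed transcript. It stood at 3.50, 7.68 and 10.1 FPKM in SCPs and at 7.59, 7.32 and 6.91 FPKM in RSCs. RSC values lay inside the SCP range, and the log2 fold change was 0.13 with an interval from -0.72 to 0.98 (limma adjusted p = 0.79). SCP replicate 1 was the lowest of the 6 samples, and without it the log2 fold change was -0.25, which did not pass. The ligands of the family outside these genes were low. Nrg3 was listed at 0 in every sample, Egf lay between 0.429 and 0.815 FPKM, and Nrg4 reached 1.86 FPKM in RSC replicate 1 and was listed at 0 in 3 samples.

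**Figure D2:**
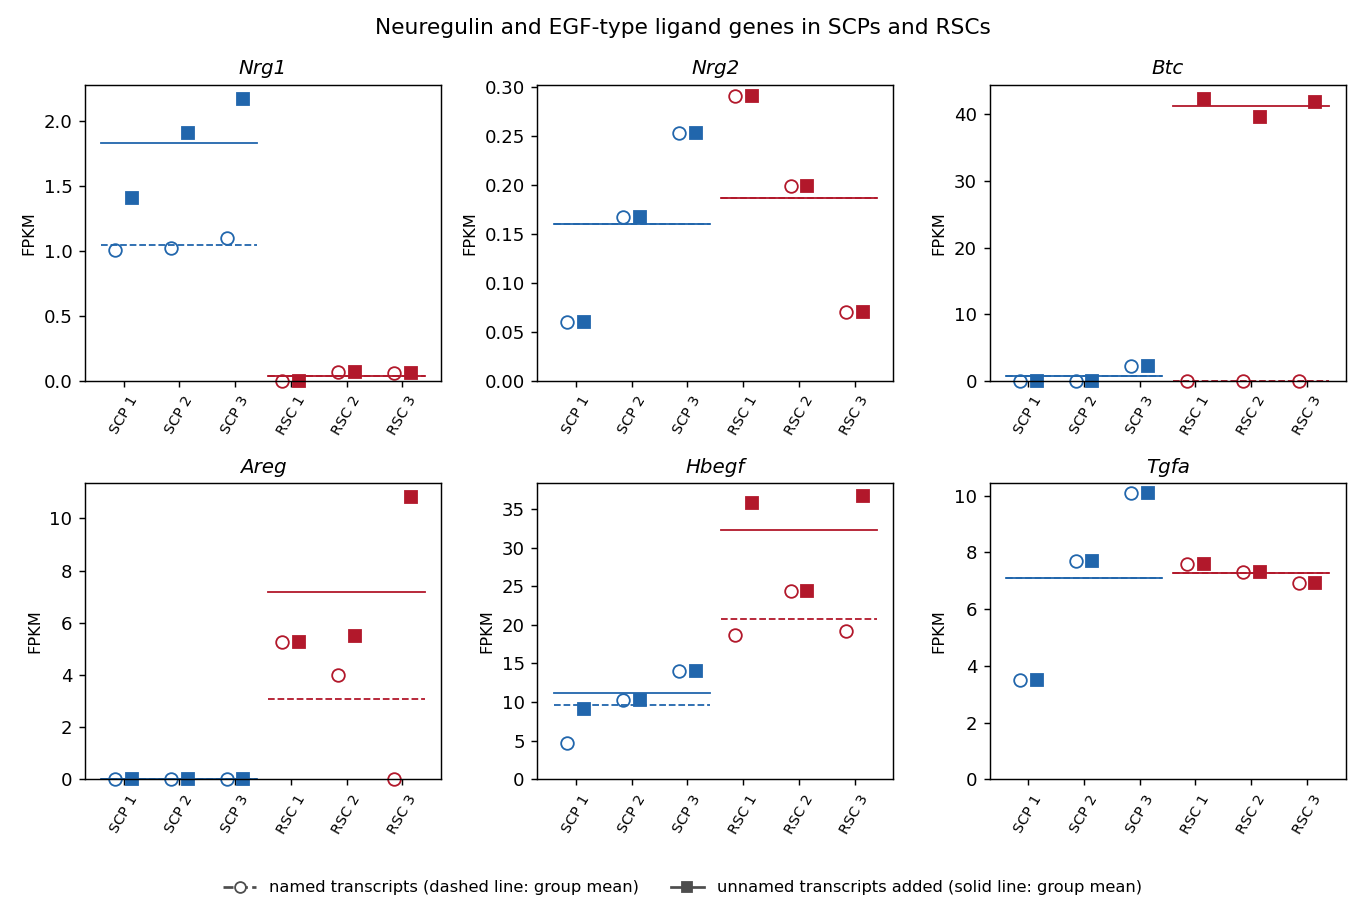
FPKM of the 6 ligand genes in each sample, with open circles for named transcripts, filled squares for the estimate with unnamed transcripts added, and lines at the group means. Nrg1 is higher in SCPs, the squares of Btc and Areg are higher in RSCs, and Tgfa overlaps. The Btc squares of RSCs (39.6 to 42.3 FPKM) stand over circles at 0, and Btc is at 2.21 FPKM in SCP replicate 3.

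With unnamed transcripts added, the 6 ligand genes summed to 14.1, 20.1 and 28.7 FPKM in SCPs and to 91.3, 77.1 and 96.5 FPKM in RSCs. Hbegf and Tgfa made up most of the SCP sum, at 54.9% ± 8.51 and 32.7% ± 6.96 (SD, n = 3), followed by Nrg1 at 9.03% ± 1.30. In RSCs, Btc made up 46.4%, 51.4% and 43.4%, and Hbegf 39.2%, 31.6% and 38.0%. Tgfa was 8.32% ± 1.17 there, and Nrg1 was at most 0.0837%. For all 6 ligand shares the groups did not overlap, with an exact permutation p = 0.1, the smallest possible. These are not 6 separate results, since the shares of a sample are parts of the same sum. The high Btc values of RSCs lower every other share there, and the FPKM of Tgfa and Nrg2 overlapped between the groups. The Hbegf share depended on the estimate. It was lower in RSCs by this measure and higher from named transcripts, at 58.7%, 67.8% and 73.1% against 50.6%, 53.9% and 50.6% in SCPs, because Btc was listed at 0 in RSCs there.

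**Figure D3:**
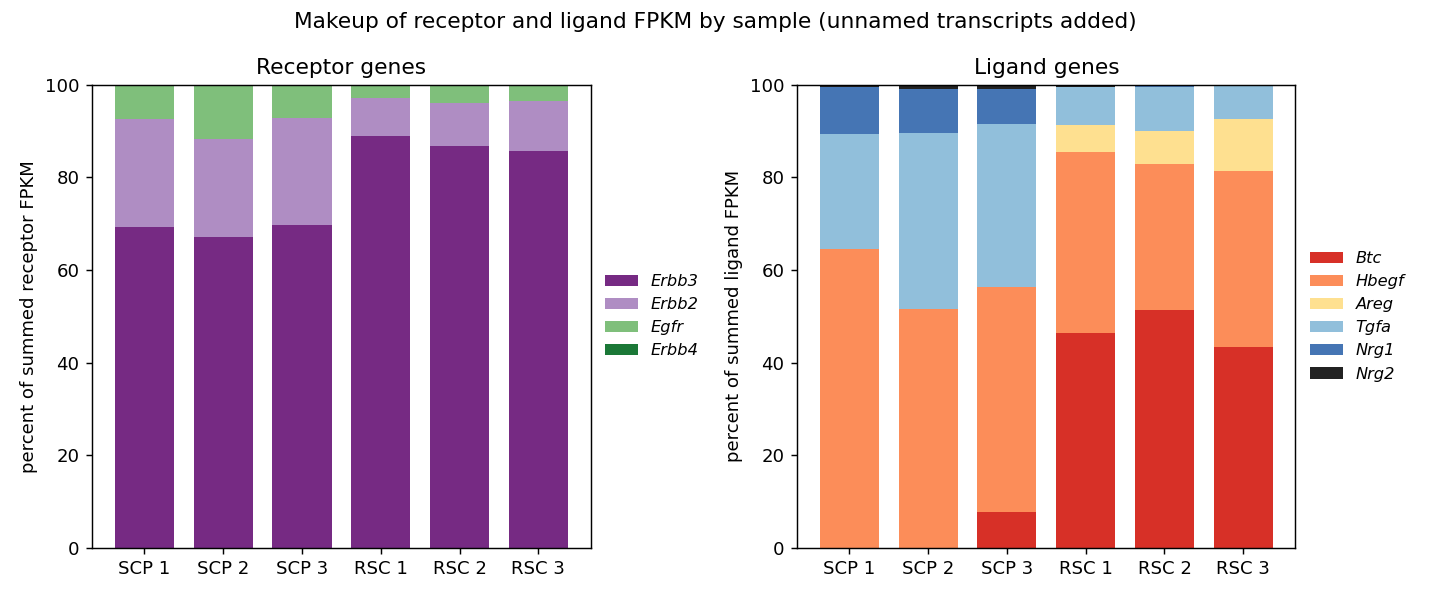
Percent of the summed FPKM of the 4 receptor genes (left) and the 6 ligand genes (right) in each sample, with unnamed transcripts added. Erbb3 takes 67.2% to 69.8% of the receptor sum in SCPs and 85.8% to 88.9% in RSCs, and Btc takes 43.4% to 51.4% of the ligand sum in RSCs.

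In order of the median level with unnamed transcripts added, SCPs ran Erbb3, Erbb2, Egfr, Hbegf, Tgfa, Nrg1, Nrg2, Erbb4, Btc and Areg. The ranges of Egfr, Hbegf and Tgfa overlapped from neighbour to neighbour, and so did those from Nrg2 to Areg, while Erbb3, Erbb2 and Nrg1 stood apart from their neighbours. RSCs ran Erbb3, Btc, Hbegf, Erbb2, Egfr, Tgfa, Areg, Erbb4, Nrg2 and Nrg1. Btc, near the bottom in SCPs, thus stood directly below Erbb3 in RSCs and above all other ligands, and Nrg1 stood last. In RSCs the neighbours Hbegf and Erbb2, Tgfa and Areg, and Erbb4 and Nrg2 overlapped.

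The genes whose log2(FPKM + 1) ran most like a member over the 6 samples were named by Pearson's r, as a description. With unnamed transcripts added, Gpr146 (r = 0.9984), Orai1 (r = 0.9979) and Clcn4 (r = 0.9978) were closest to Erbb3, and 109 genes had r over 0.99. Nrg1 ran closest to Nell2 (r = 0.9995), Pnlip (r = 0.9994) and Capn6 (r = 0.9992), with 163 genes over 0.99. Egfr was closest to Ppic (r = 0.9821), Pign (r = 0.9807) and Mtmr3 (r = 0.9756), with 0 genes over 0.99. The points share the 2 groups, so a high r can come from the group difference alone. From named transcripts, Erbb3 was closest to Esrra (r = 0.991), which was also listed at 0 in SCP replicate 1 and RSC replicate 2, then to Micu2 (r = 0.9714) and Htr1b (r = 0.9697). Egfr was there closest to Lzts3 (r = 0.9903), Hs1bp3 (r = 0.9878) and LOC680933 (r = 0.9874), and Nrg1 to Vsnl1 (r = 0.9994), Dcaf7 (r = 0.9994) and Plod2 (r = 0.9993).

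Genes around the receptors were taken from lists, and 76 of 88 could be tested from named transcripts. Of these, 11 were called towards RSCs and 8 towards SCPs, 25.0% in all beside 40.5% of all tested genes, with a median log2 fold change of 0.01. After adding unnamed transcripts, 78 could be tested, of which 17 were called towards RSCs and 16 towards SCPs, 42.3% in all beside 57.4%, with a median of 0.0. Among 10 proteases and rhomboid proteins that shed ligands, 9 were tested and 1 (11.1%) was called from named transcripts, Rhbdf2, an inactive rhomboid that guides the shedding enzyme ADAM17 to the cell surface. Rhbdf2 stood at 1.63, 3.37 and 6.85 FPKM in SCPs and at 9.83, 18.9 and 20.0 FPKM in RSCs (log2 fold change 1.88, standard error 0.47, limma adjusted p = 0.019). The second estimate called 2 in each direction (44.4%, beside 57.4%). The list had a median of -0.20 and then -0.11.

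Among 12 partners of ErbB receptors at the membrane, 9 were tested and 3 were called (33.3%, beside 40.5% of all genes). Cd44, a hyaluronan receptor and ErbB co-receptor, stood at 0.709, 0.788 and 1.49 FPKM in SCPs and at 82.9, 75.1 and 83.2 FPKM in RSCs (log2 fold change 5.37, standard error 0.18, limma adjusted p = 2.4e-05). Cd44 is also abundant on leukocytes. Fyn, a Src family kinase, rose by 0.69 on the log2 scale, and Vangl2, a planar cell polarity protein, was higher in SCPs (log2 fold change -2.42, limma adjusted p = 0.0026). In the second estimate 10 were tested, 3 were called towards RSCs and 1 towards SCPs (40.0%, beside 57.4%), and the list's median went from 0.50 to 0.07.

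Among 35 adaptors and kinases downstream, 33 were tested, and 4 were called towards RSCs and 2 towards SCPs from named transcripts (18.2%, beside 40.5% of all genes), with a median of -0.04. Shc4, an adaptor of the Shc family, was listed at 0 in all SCP samples and at 23.2, 32.0 and 37.8 FPKM in RSCs. Mapk3, the kinase ERK1, stood at 110.3, 123 and 111 FPKM in SCPs and at 341, 315 and 368 FPKM in RSCs (log2 fold change 1.56, standard error 0.09, limma adjusted p = 7.2e-05). Plcg1, phospholipase C gamma, went the other way, at 79.8, 61.6 and 66.7 FPKM in SCPs and 18.0, 14.5 and 21.9 FPKM in RSCs (log2 fold change -1.89, limma adjusted p = 0.00048). Pik3r3, a regulatory subunit of PI3 kinase, was listed at 0 in RSCs from named transcripts, and with unnamed ones it stood at 20.2, 16.7 and 15.4 FPKM in SCPs and 3.75, 5.11 and 5.12 FPKM in RSCs (log2 fold change -1.70, limma adjusted p = 0.00015). In that estimate 6 were called in each direction (36.4%, beside 57.4%), with a median of -0.13.

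Among 26 genes of feedback and receptor turnover, 25 were tested, and 4 were called towards RSCs and 5 towards SCPs (36.0%, beside 40.5% of all genes), with a median of 0.10. Socs3, a suppressor of cytokine signalling, stood at 29.3, 38.1 and 13 FPKM in SCPs and at 122, 109.5 and 129.6 FPKM in RSCs (log2 fold change 2.25, limma adjusted p = 0.0044). Its relative Socs5, which promotes loss of EGFR, stood at 8.52, 8.49 and 8.39 FPKM in SCPs and at 40.1, 38.0 and 38.1 FPKM in RSCs (log2 fold change 2.07, limma adjusted p = 4.3e-05). Higher in SCPs were Lrig3, of a family of membrane proteins that act on receptor levels (63.8, 21.0 and 39.5 against 3.60, 3.27 and 1.99 FPKM, log2 fold change -3.31, limma adjusted p = 0.0015), and Nedd4, a ubiquitin ligase (421, 435 and 379.6 against 244, 228 and 244 FPKM, log2 fold change -0.78, limma adjusted p = 0.00051). In the second estimate 26 were tested, and 6 were called towards RSCs and 7 towards SCPs (50.0%, beside 57.4%), with a median of 0.09.

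**Figure D4:**
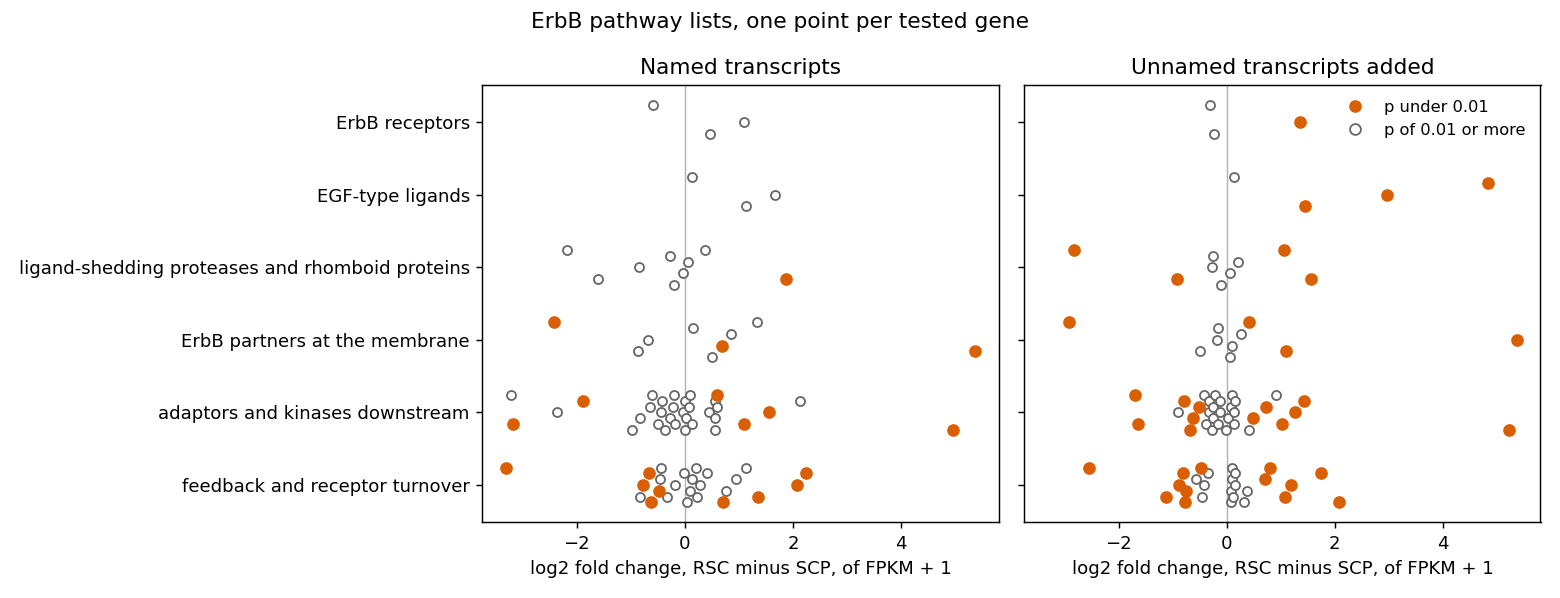
Log2 fold change, RSC minus SCP, of every tested gene in each list, for named transcripts (left) and with unnamed transcripts added (right). Filled points have an unadjusted limma p under 0.01, and both panels show called genes on either side of 0. Cd44 lies at 5.37 in both, and the place of genes listed at 0 in a whole group (Areg, Shc4) depends on the added 1 FPKM.

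Markers of other cell types differed between the groups. From named transcripts, 8 of 8 tested leukocyte markers, of 10 in the list, were higher in RSCs. The list summed to 6.09 to 25.3 FPKM in SCPs and 1980 to 2336 FPKM in RSCs. Under the filter were Cd3e, listed at 0 in every SCP sample, and Cd79a. Cd79a lay the other way, at 0.429, 0.595 and 0.68 FPKM in SCPs and 0.171, 0 and 0 FPKM in RSCs. Fibroblast markers summed to 641 to 1020.1 FPKM in SCPs and 5359.9 to 8011 FPKM in RSCs, with 5 of 6 higher in RSCs. Erythroid markers summed to 16657 to 74543 FPKM in SCPs and at most 1.43 FPKM in RSCs, and skeletal muscle markers to 42.1 to 162 and 4.92 to 6.37 FPKM, with 5 of 5 higher in SCPs. Neuronal markers summed to 30.4 to 52.9 FPKM in SCPs and 18.9 to 28.4 FPKM in RSCs, with 2 of 6 higher in SCPs, and Elavl4 and Isl1 listed at 0 in every RSC sample. Perineurial markers summed to 27.8 to 37.1 and 89.5 to 147 FPKM (2 of 4 tested higher in RSCs, 1 in SCPs). Mural markers summed to 77.9 to 251 and 125 to 198 FPKM (2 of 4 tested higher in RSCs). Endothelial markers summed to 17.8 to 29.3 and 33.8 to 34.1 FPKM (0 of 5 called). Epithelial markers summed to 2.39 to 11 and 5.92 to 7.09 FPKM (1 of 2 tested higher in RSCs). With unnamed transcripts added, mural sums were 85.9 to 265 FPKM in SCPs and 271 to 301 FPKM in RSCs (3 of 5 higher in RSCs, 1 in SCPs). Perineurial sums were then 27.8 to 37.7 and 233 to 289 FPKM, and endothelial sums overlapped at 31.5 to 64.0 and 47.6 to 59.8 FPKM. Neuronal sums were 42.9 to 62.7 FPKM in SCPs and 21.6 to 28.4 FPKM in RSCs, with 4 of 6 higher in SCPs and 0 in RSCs. The 7 tested Schwann cell lineage markers were above 0 in both groups, with sums of 427 to 486 FPKM in SCPs and 1887 to 2298 FPKM in RSCs (4 higher in RSCs, 1 in SCPs).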

How the data were processed

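The authors made stranded mRNA libraries from 3 SCP and 3 RSC samples and mapped the reads to rn6. Per the submitters' processing notes, FastQC 0.11.2, TopHat2 2.1.0 and Cufflinks 2.2.1 were used. The authors deposited 1 Cufflinks table per sample, with FPKM of each transcript, its confidence bounds in FPKM, and the read coverage. The deposited coverage is a signal per transcript from which relative depth was taken (0.878 to 1.0 of the highest sample in SCPs, 0.79 to 0.841 in RSCs). The tables hold no counts, so absolute depth is unknown and the precision rests on 3 samples per group. Output of Cuffdiff was not analysed here.

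FPKM were summed by gene symbol, after 77 transcripts with date-like names were left out of each table. A second estimate added unnamed transcripts with the same gene identifier that overlapped the gene, which held 8.9% to 12.2% of all FPKM. limma 3.58.1 in R 4.3.3 was fitted with a variance trend and a pseudocount of 1 over all genes whose mean reached 1 FPKM, two-sided, called at an unadjusted p under 0.01. Shares were compared by exact two-sided permutation tests (scipy 1.17.1). The fit was tested on simulated data.

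Genes named are the 10 members, in each list the 2 highest and the 2 lowest fold changes among genes called from named transcripts, the 3 genes most like Erbb3, Egfr and Nrg1, and Sox10 and other markers. Values of 1 gene of the marker lists are not reported here. The remaining ligands were named after their values were seen. Members and lists were chosen with earlier results of these data known. Replicate numbers came from the labels and were not taken to pair samples. Alternatives were other pseudocounts, filters and scalings, the replicate block, adjusted p, values of 0 left out (if the same group reached 5 FPKM elsewhere), each sample left out, and, chosen after seeing the data, the same for the second estimate.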

Additional observations from a re-analysis of the deposited data

How the results depend on the processing

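The counts of members called from named transcripts, 0 higher and 0 lower in RSCs, became 1 and 1 at an adjusted p under 0.05. The number higher became 4 with unnamed transcripts added. It became 2 (Erbb3 and Areg) where a 0 was left out if another sample of its group had at least 5 FPKM. The number lower became 1 without the filter (Nrg1) and 1 with the replicate block (Erbb2). The block changed the call of no other member. Deviations of samples with the same replicate number correlated at 0.0435, -0.00491 and 0.0259, and at 0.0632, 0.0343 and 0.0504 in the second estimate, where every sample correlated best with its own number. All were under 0.1, and the numbers were not taken as pairs. Leaving out single samples gave 0 to 1 in each direction. Leaving out values of 0 removed that of Areg in RSC replicate 3 and kept its 3 values of 0 in SCPs, so its call there rests on the rule, and the 0 of Egfr was kept. Over all 13003 genes tested from named transcripts, 5268 called became 6186 at an adjusted p under 0.05 and 5886 with values of 0 left out. The number was 6195 without the filter, 4275 with the replicate block and 4449 to 4835 with single samples left out. It became 8040 with unnamed transcripts added. The counts of members are thus to be read beside these numbers. Single samples reversed Erbb3, Egfr and Tgfa from named transcripts. Erbb3 ranged from -0.58 without SCP replicate 1, and -0.07 without RSC replicate 1, to 3.33, Egfr from -0.27 without SCP replicate 1 to 1.01, and Tgfa from -0.25 to 0.40. Egfr was -0.31 with unnamed transcripts added.

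In the second estimate, Areg, Btc, Erbb3 and Hbegf kept p under 0.01 under all 12 alternatives, with Erbb3 between 1.24 and 1.62, Hbegf between 1.33 and 1.71 and Btc between 4.56 and 7.18. Btc and Areg were over the filter only through their RSC values, so their repeated calls are not separate support. Erbb2 turned to 0.03 after median-of-ratios scaling, and Tgfa ranged from -0.25 to 0.40 over left-out samples. The number lower in RSCs became 1 without the filter and was 0 to 1 over left-out samples, where Nrg1 passed the filter. Over all genes, 9035 were called without the filter and 7110 to 7637 over left-out samples. The RSC minus SCP difference of the Hbegf share went from 14.9 to -18.6 percentage points, and that of Btc from -2.67 to 44.5, with unnamed transcripts added. The Hbegf share turned because Btc was listed at 0 in RSCs from named transcripts. Apart from this, and from fewer samples or other members passing the filter, the cause of these changes was not tested. Absolute depth is not given in the tables, so no detection limit can be set for members under 1 FPKM.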
